A study of Macaca mulatta with 28 samples.

Results

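Transcripts of 10 non-opioid neuropeptide precursors were examined in punches of the rhesus macaque ventral tegmental area, the VTA: CCK, NTS, TAC1, TAC3, SST, NPY, VIP, GAL, CARTPT and ADCYAP1. They were taken by gene symbol from a table of 16885 named entries, 1 for each gene symbol and each carrying 1 transcript identifier, and all 10 were present and passed the filter of 5 or more counts in 3 or more animals, as did 13769 transcripts in all. The 28 animals were adult male wild-type macaques, each with 1 bulk RNA library from a VTA tissue punch. The 17 drinkers had self-administered ethanol over a long period of daily access, interrupted by abstinence, and were sampled after a last abstinence of 30 days. The 11 controls had no ethanol and were either yoked for calories to a drinker or kept in the same housing, and the labels used here do not tell these apart. Drinkers were graded by the study from their drinking as low, binge, heavy or very heavy. Cohort 1 held 8 controls, 1 low, 4 heavy and 3 very heavy drinkers, and cohort 2 held 3 controls, 2 binge, 1 heavy and 6 very heavy drinkers. Animals are named below by cohort, arm and a number that follows the order of their identifiers.

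Neuropeptides are cut from larger precursor proteins, stored in dense-core vesicles and released by neurons beside fast transmitters, and they act on receptors coupled to G proteins over longer distances and times than those transmitters. In the midbrain, CCK and neurotensin are known from dopamine neurons themselves, in which tyrosine hydroxylase (TH) makes the precursor of dopamine, while somatostatin, neuropeptide Y and the tachykinins are known from GABA neurons and from neighbouring cells. Peptides also reach the VTA in axons whose messenger RNA lies in other brain regions and is not measured in a punch.

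Libraries held 12303914 to 27338669 estimated counts. Mitochondrial transcripts took a median of 48.2% of them. Pairs of libraries correlated at 0.864 to 0.942 on the log scale, and no pair had more than 1.77% identical counts. Levels are given as CPM, the counts of a transcript scaled to a library of fixed size with edgeR's TMM factors. Markers of dopamine neurons were present in every library, but the range of their summed level was wide, with 47.9, 278 and 1962 CPM as the lowest, median and highest control and 47.0, 264 and 1773 CPM in drinkers. TH alone spanned 5.81 to 826 CPM in controls and 5.58 to 712 CPM in drinkers, a 148-fold range over all animals. In bulk tissue, fewer cells of a type and less RNA per cell cannot be told apart.

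Divided by the length of the longest RefSeq messenger RNA of each gene, the precursors fell into 3 tiers. Some genes had several, such as TAC1 with 5 and TH with 2. SST, the precursor of somatostatin, which inhibits release from neurons and endocrine cells, had the highest median at 78.6 CPM per kilobase, above that of TH at 48.8. NPY, a peptide tied to feeding and to stress resilience, followed at 23.1, and TAC1, the precursor of substance P and neurokinin A, at 16.5 CPM per kilobase. NTS (neurotensin) at 1.80, CARTPT (cocaine- and amphetamine-regulated transcript) at 1.51, CCK (cholecystokinin) at 1.44, ADCYAP1 (the peptide PACAP) at 0.997 and GAL (galanin) at 0.914 CPM per kilobase formed a second tier. TAC3, the precursor of neurokinin B, had a median of 0.0798 CPM per kilobase and VIP (vasoactive intestinal peptide) a median of 0. The ranges over animals of neighbours in this order overlapped throughout, so the order is one of medians. It also rests on the lengths, taken from RefSeq while the table carries Ensembl transcript identifiers: undivided, the medians were 93.1 CPM for TH, 50.8 for SST, 20.2 for TAC1 and 9.49 for NPY, with TH above SST and TAC1 above NPY.

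The genes lie apart in the Mmul_10 assembly, the build the counts were made on, except that NPY and TAC1 share chromosome 3, CCK and SST chromosome 2 and NTS and TAC3 chromosome 11. By the RefSeq annotation SST spans chr2:10153093-10154595 (+), NPY chr3:90845859-90853344 (-), TAC1 chr3:108394177-108402680 (-) and CARTPT chr6:68538478-68540262 (+). NTS spans chr11:85501450-85508725 (+), CCK chr2:98191668-98199878 (-) and VIP chr4:58931198-58940267 (+). The cAMP response element, bound by CREB, was first described in the SST promoter, and its full palindrome TGACGTCA, which reads the same on both strands, was searched in the 250 bases before each gene's annotated start. It was found before 2 of the 10 genes, SST and CARTPT, and before 306 of 20774 genes in the annotation (1.47%). The matches are printed with the element in capitals and 30 bases on either side, cut at the start of the gene, because these are the precursors with the highest level and with the largest spread between animals.
SST, chr2:10153035-10153092 (+), element 28 to 21 bases before the start: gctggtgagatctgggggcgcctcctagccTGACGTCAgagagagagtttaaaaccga
CARTPT, chr6:68538322-68538389 (+), element 126 to 119 bases before the start: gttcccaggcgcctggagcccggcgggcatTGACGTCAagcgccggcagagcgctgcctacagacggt
A match of letters is a description of the window and not a binding site, and SST and CARTPT had a correlation of r = -0.07 over the 28 animals.

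The spread of the precursors between animals was taken over all groups and cohorts together. The standard deviation of log2 CPM over the 28 animals was 1.60 for CARTPT, 1.38 for CCK, 1.27 for VIP and 1.17 for NPY, and the lowest was 0.73 for TAC1, against a median of 0.62 over all tested transcripts and 2.27 for TH. CARTPT stood at the 83.5th percentile of that spread and TAC1 at the 54.4th, with the other precursors between them. Among precursors detected in every animal at more than a few counts, the highest level was 9.002 times the lowest for NTS, 9.94 times for TAC1, 23.3 times for SST, 27.7 times for NPY and 37.6 times for ADCYAP1.

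**Figure D1:**
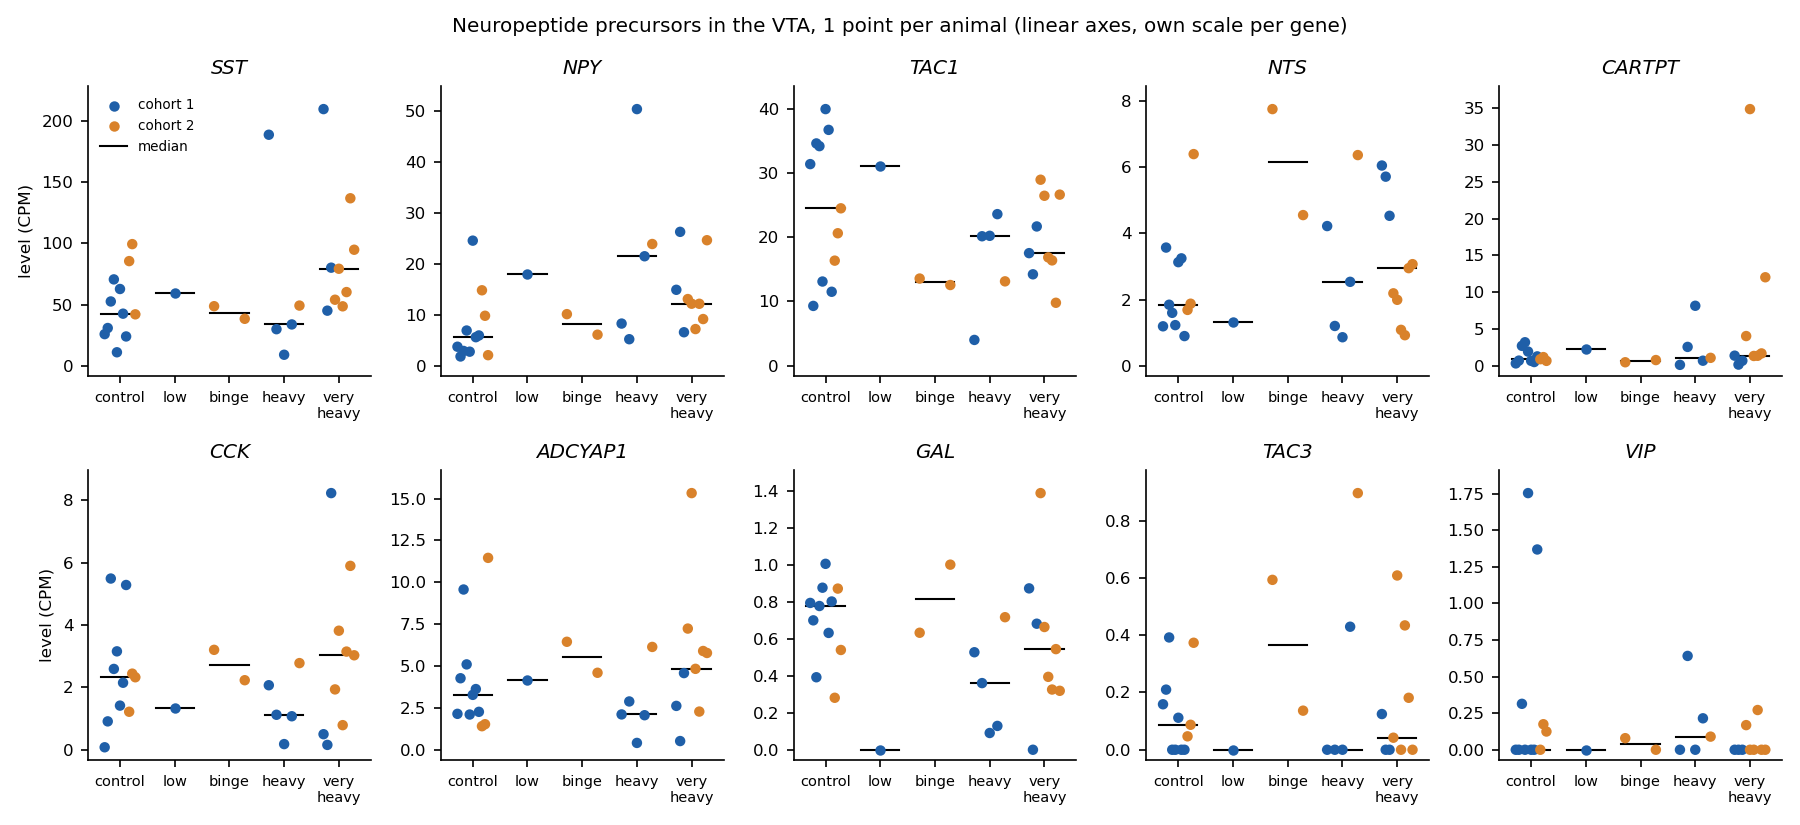
Level of each precursor in CPM on linear axes with a scale of its own, 1 point per animal, for controls and for low, binge, heavy and very heavy drinkers, coloured by cohort, with a line at the median of each group. Controls and drinkers overlapped for every precursor, 5 controls lay below all drinkers for NPY, and 1 very heavy drinker stood at 34.9 CPM for CARTPT.

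The first comparison asked whether the precursors differed between drinkers and controls at the end of abstinence. No precursor passed the test: by edgeR's quasi-likelihood test with Benjamini-Hochberg adjustment over all transcripts, 0 of the 10 were called at an adjusted p of 0.05, and 0 of all 13769 (0%). At an unadjusted p of 0.05, 2 of the 10 (NPY and CARTPT, both higher in drinkers) were reached, against 629 of all transcripts (4.57%). DESeq2 called 11 transcripts, none of them a precursor here. Fitted log2 fold changes were above 0 for 6 and below 0 for 4 of the precursors, with a median of 0.29 against 0.0015 over all transcripts.

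NPY held the smallest p of the set. Its lowest, median and highest levels were 1.82, 5.60 and 24.6 CPM in the 11 controls and 5.21, 12.2 and 50.4 CPM in the 17 drinkers. The groups overlapped, with 5 controls below all drinkers, 3 drinkers above all controls and 16 of 17 drinkers above the median control. The log2 fold change was 1.10 (SE 0.40; 95% interval 0.29 to 1.92), or 2.15-fold, with an edgeR p of 0.00994 and an adjusted p of 0.760. It was 1.13 with cohort as a covariate (adjusted p 0.487, edgeR) and 1.01 with TH as a covariate (adjusted p 0.809, edgeR). It ranged from 0.89 without cohort 1 drinker 4, the animal at 50.4 CPM, to 1.50 without cohort 1 control 6, the control at 24.6 CPM. By category, the low drinker had 18.0 CPM, the 2 binge drinkers 6.10 and 10.1 CPM, and the 5 heavy drinkers 5.21, 8.28, 21.5, 23.9 and 50.4 CPM.

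CARTPT, whose peptides are known from reward and feeding circuits and from the Edinger-Westphal nucleus next to the VTA, was the other. Its lowest, median and highest levels were 0.318, 0.890 and 3.20 CPM in controls and 0.122, 1.36 and 34.9 CPM in drinkers. Most animals of both groups lay in the same range, with 2 drinkers below and 4 above all controls. The log2 fold change was 1.76 (SE 0.71; 95% interval 0.30 to 3.21; p = 0.0201 before adjustment, edgeR), and it was 0.93 without cohort 2 drinker 3, the animal at 34.9 CPM, and 0.89 by DESeq2 (p = 0.0966). With cohort as a covariate it was 1.18 (p = 0.142 before adjustment, edgeR), and with TH 1.41 (p = 0.0950 before adjustment, edgeR). The 3 highest values came from cohort 2 drinker 3 (631 counts), cohort 2 drinker 9 at 12.0 CPM and cohort 1 drinker 4 at 8.16 CPM. UCN, the urocortin gene that marks Edinger-Westphal neurons, stood at 11.8, 10.2 and 0 CPM in these 3 animals against a median of 12.6 CPM in controls, and over the 28 animals its correlation with CARTPT was r = -0.03. UCN was at 0 counts in 6 of the 28 animals, and the part of these neurons in the CARTPT values was not tested. Other peptide genes were at their highest in cohort 2 drinker 3, each above the other 27 animals. These were TRH (thyrotropin-releasing hormone) at 34.1 CPM, CALCB (a calcitonin gene-related peptide) at 10.3 CPM and ADCYAP1 at 15.3 CPM. Both TRH and CALCB were second highest in cohort 2 drinker 9.

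The remaining abundant precursors overlapped between the groups. SST ran from 11.0 through a median of 42.5 to 99.3 CPM in controls and from 8.98 through 53.9 to 209.5 CPM in drinkers, with 3 drinkers above all controls. Its log2 fold change was 0.58 (95% interval -0.16 to 1.32). TAC1 ran from 9.31 through 24.5 to 39.9 CPM in controls and from 4.02 through 17.5 to 31.1 CPM in drinkers. Here 5 controls lay above all drinkers and 4 of 17 drinkers lay above the median control. The log2 fold change of TAC1 was -0.41 (95% interval -0.91 to 0.09; p = 0.107 before adjustment, edgeR).

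CCK and NTS did not pass either. CCK had a lowest, median and highest level of 0.0794, 2.33 and 5.49 CPM in controls and of 0.156, 2.07 and 8.23 CPM in drinkers. Its log2 fold change of -0.01 had an interval from -1.03 to 1.00, so that differences of up to about that size in either direction could not be told from none, and it was 0.21 with TH as a covariate. NTS stood at 0.896, 1.84 and 6.39 CPM in controls and 0.861, 2.95 and 7.75 CPM in drinkers, with a log2 fold change of 0.47 (95% interval -0.28 to 1.23). Both groups covered nearly the same range for these peptides.

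ADCYAP1, whose product raises cAMP in its target cells, had levels of 1.41, 3.28 and 11.5 CPM in controls and 0.408, 4.58 and 15.3 CPM in drinkers. Its log2 fold change of 0.11 (95% interval -0.74 to 0.96) became -0.35 with cohort as a covariate. GAL, an inhibitory peptide of ascending noradrenergic and hypothalamic neurons, had levels of 0.281, 0.778 and 1.01 CPM in controls and 0, 0.528 and 1.39 CPM in drinkers. GAL had 0 counts in 2 drinkers and in no control, and 4 drinkers lay below all controls, with a log2 fold change of -0.45 (95% interval -1.49 to 0.59).

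TAC3 and VIP were close to the limit of detection. TAC3 was at 0 counts in 4 controls and 8 drinkers and reached 0.392 CPM in controls and 0.896 CPM in drinkers, where 5 animals lay above all controls. VIP was at 0 counts in 6 controls and 11 drinkers, and its highest values were 1.75 CPM (40 counts) in a control and 0.641 CPM (16 counts) in a drinker. A count of 0 allows a level of up to 0.112 to 0.238 CPM, depending on the library, by counting error alone (3 counts). The log2 fold changes were 0.67 (SE 0.99) for TAC3 and -1.90 (SE 1.08) for VIP. That of TAC3 was 0.33 without cohort 2 drinker 8 and -0.088 with cohort as a covariate, and that of VIP was -1.13 without cohort 1 control 5 and -0.74 with TH as a covariate. Neither gene was called between drinkers and controls, and whether depth limited this was not tested.

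Drinking categories were compared in 1 fit over all animals. Between the 9 very heavy drinkers and controls, 0 of 10 precursors and 0 of all transcripts (0%) were called by edgeR, while DESeq2 called 22 transcripts and no precursor; 2 of the 10, CARTPT and NPY, were under an unadjusted p of 0.05 by edgeR, against 636 transcripts (4.62%), and SST as well by DESeq2. CARTPT in very heavy drinkers had levels of 0.156, 1.37 and 34.9 CPM (lowest, median, highest), and its log2 fold change was 2.32 (SE 0.76; edgeR adjusted p 0.766, DESeq2 adjusted p 0.287), and was 1.15 without cohort 2 drinker 3. NPY in very heavy drinkers had levels of 6.58, 12.2 and 26.3 CPM, all 9 above the median control, with a log2 fold change of 0.93 (SE 0.45; adjusted p 1.00, edgeR). SST had a log2 fold change of 0.85 (95% interval -0.0048 to 1.71; p = 0.0512 before adjustment, edgeR).

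Between the 5 heavy drinkers and controls, again 0 of 10 precursors and 0 transcripts (0%) were called by edgeR, DESeq2 called 48 transcripts and no precursor, and 984 transcripts were under an unadjusted p of 0.05 (7.15%), NPY among them. Its log2 fold change of 1.57 (SE 0.51; adjusted p 0.554, edgeR) became 1.00 without cohort 1 drinker 4. Heavy drinkers had 4.02, 13.1, 20.2, 20.2 and 23.6 CPM of TAC1, all below the median control, with a log2 fold change of -0.61 (95% interval -1.34 to 0.12). It was -0.35 without cohort 1 drinker 1, the animal at 4.02 CPM. Very heavy and heavy drinkers were not distinguished for any precursor, with 0 of 10 and 0 of all transcripts (0%) called by edgeR and 936 transcripts (6.8%) but none of the 10 under an unadjusted p of 0.05; DESeq2 called 56 transcripts and none of these. The difference there was 1.34 for CARTPT (95% interval -0.65 to 3.34) and, with the widest interval of the 10, -1.84 for VIP (95% interval -4.98 to 1.30). That of CARTPT was 2.52 without cohort 1 drinker 4 and 0.63 with cohort as a covariate. The comparisons share their controls, and the low and binge categories, with 1 and 2 animals, were not tested.

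**Figure D2:**
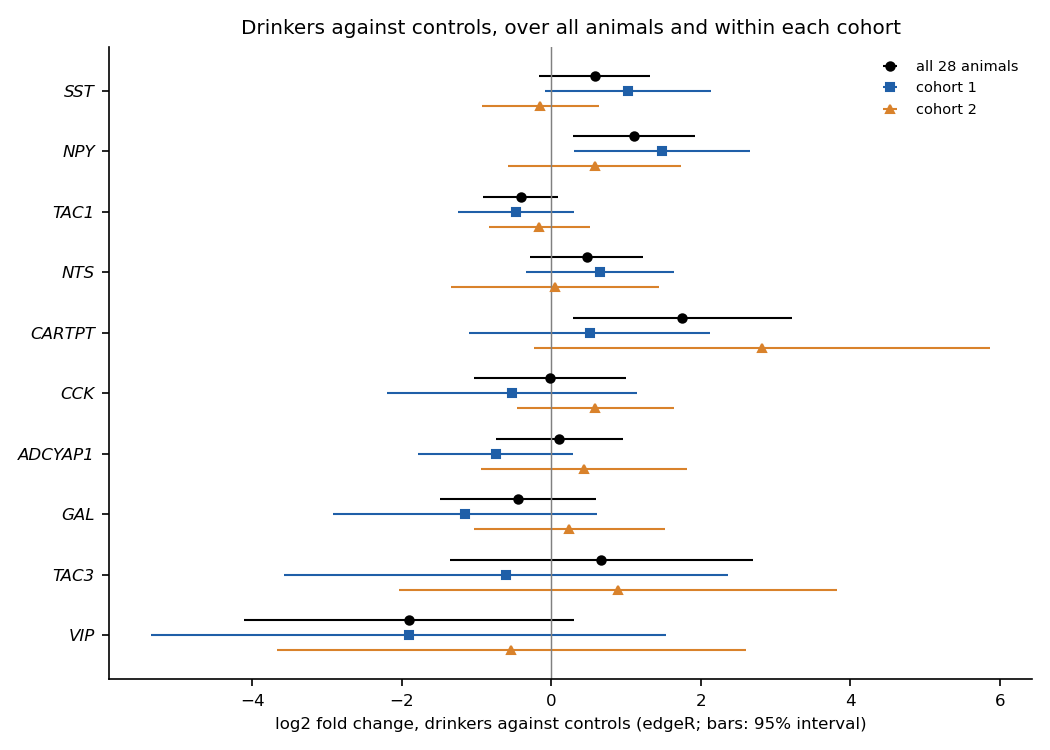
Log2 fold change of each precursor in drinkers against controls from edgeR, with 95% intervals, over all animals and within cohorts 1 and 2. The interval lay above 0 over all animals for NPY at 1.10 and CARTPT at 1.76, and none of the changes passed the adjusted test.

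Within cohort 1, with 8 drinkers and 8 controls, NPY had levels of 5.21, 16.5 and 50.4 CPM in drinkers and 1.82, 4.67 and 24.6 CPM in controls, and a log2 fold change of 1.48 (SE 0.56; adjusted p 0.295, edgeR). No precursor was among the 5 transcripts called there (0.0363%), and NPY was the only one of the 10 among the 1600 at an unadjusted p of 0.05 (11.6%). DESeq2 called 234 transcripts there and put NPY (p = 0.0056) and SST (p = 0.035) under the unadjusted threshold, but gave an adjusted p for only 2 of the 10, not for NPY, and that of SST was 0.212. SST in cohort 1 ran from 11.0 to 70.5 CPM in controls and from 8.98 to 209.5 CPM in drinkers, with a log2 fold change of 1.03 (95% interval -0.09 to 2.14). GAL was lower in the fit at -1.16 (95% interval -2.92 to 0.61), and both drinkers without any GAL count belonged to this cohort.

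Within cohort 2, with 9 drinkers and 3 controls, 0 of 10 precursors and 0 transcripts (0%) were called by edgeR, DESeq2 called 23 transcripts and none of the 10, and 546 transcripts (3.97%) but no precursor were under an unadjusted p of 0.05. NPY in the 3 controls was 2.08, 9.81 and 14.8 CPM, against 6.10, 12.2 and 24.6 CPM (lowest, median, highest) in the drinkers, and its log2 fold change was 0.58 (95% interval -0.58 to 1.74). CARTPT in the 3 controls was 0.664, 0.890 and 1.18 CPM against 0.475, 1.36 and 34.9 CPM in the drinkers, with a log2 fold change of 2.82 (SE 1.41; p = 0.0672 before adjustment, edgeR), which was 1.64 without cohort 2 drinker 3, a value added after seeing the data, and 1.57 by DESeq2. SST had a log2 fold change of -0.15 (95% interval -0.93 to 0.64), with controls at 42.0, 85.4 and 99.3 CPM.

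The difference of the drinker effect between cohorts was tested as an interaction. None of the 10 precursors was among the 2 transcripts called (0.0145%), nor among the 1325 under an unadjusted p of 0.05 (9.62%). DESeq2 called 129 transcripts, gave 9 of the 10 precursors no adjusted p, and put none of the 10 under an unadjusted p of 0.05. The interaction was -1.19 for SST (SE 0.74), 2.31 for CARTPT (SE 1.49) and -0.91 for NPY (SE 0.82) on the log2 scale, so the cohorts were not shown to differ. The cohorts themselves, with arm in the fit, gave 6 called transcripts (0.0436%) and 1350 under an unadjusted p of 0.05 (9.8%), of which ADCYAP1 was the only precursor here. DESeq2 called 121 transcripts and none of the 10. ADCYAP1 was higher in cohort 2 by 1.06 on the log2 scale (SE 0.41; p = 0.0158, adjusted p 0.324, edgeR). Of the 2 glutamate-neuron markers, both vesicular glutamate transporters, SLC17A7 was higher in cohort 2 by 0.86 (SE 0.32; adjusted p 0.292, edgeR) and had r = 0.41 with ADCYAP1 over the 28 animals, while SLC17A6 had -0.045 and r = 0.04. Of the 3 astrocyte genes tested, SLC1A3 was higher by 0.47 (SE 0.16; adjusted p 0.227, edgeR), AQP4 was higher but at 0 counts in 18 animals, and GFAP had -0.78 (SE 0.59). The other markers under an unadjusted p of 0.05 by edgeR were MOBP of oligodendrocytes at -0.42, NR4A2 of dopamine neurons at -2.30 and ISL1 of motor neurons, at 0 counts in 20 animals. The part of these cells in the ADCYAP1 difference was not tested.

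The precursors were then compared with TH, the enzyme of dopamine synthesis. In an edgeR fit of every transcript on log2 TH, 78 of 13768 transcripts were called (0.567%), among them 8 of the 12 other dopamine-neuron markers, and 848 were under an unadjusted p of 0.05 (6.16%). VIP was the 1 of the 10 precursors that was called, with a slope of 0.92 log2 units per log2 unit of TH (SE 0.20; adjusted p 0.0166). DESeq2 also called 78 transcripts, but with a slope of 0.88 VIP did not pass (adjusted p 0.128). CCK had a slope of 0.22 (95% interval 0.0081 to 0.43) and NPY had a slope of -0.20 (95% interval -0.39 to -0.0041), with edgeR p-values of 0.0424 and 0.0456 before adjustment and 0.773 and 0.787 after it. The slope of NPY was -0.089 without cohort 1 drinker 4. VIP, CCK and NPY were the precursors under the unadjusted threshold by edgeR, and DESeq2 added NTS with a slope of -0.17 (p = 0.0317, adjusted p 0.671).

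VIP was seen mostly in the libraries richest in TH. The 4 libraries highest in TH, at 826, 712, 653 and 644 CPM, held 40, 16, 8 and 29 counts of VIP, which were the 4 highest counts. Those animals were cohort 1 control 5, drinker 2, control 3 and control 8. The other 24 libraries held 0 to 5 counts, and 17 of the 28 held none. Without cohort 1 control 5 the slope was 0.83 and its adjusted p 0.0726 (edgeR), without the 2 animals farthest from the median of TH it was 0.92 (adjusted p 0.0596, edgeR), and with arm and cohort as covariates it was 0.90 (adjusted p 0.063, edgeR). The call rested on few counts in few animals.

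Correlations on log2 CPM also placed VIP and CCK first. VIP had Pearson's r = 0.63 (p = 0.00026) and Spearman's rho = 0.62 with TH, and r = 0.62 without the 2 animals farthest in TH (permutation test with 100000 resamples, two-sided, 28 animals). CCK had r = 0.49 (p = 0.00782) and rho = 0.42 (p = 0.027), and r = 0.39 without the same 2 animals, by the same permutation test. Adjusted over the 10 precursors, the permutation p of CCK was 0.0391 by r and 0.135 by rho, so CCK did not pass by rank. VIP and CCK are 2 of 10 relations computed. The other 8 lay between r = -0.29 (TAC3 and NTS) and r = 0.06 (CARTPT). They did not follow the slopes throughout, since CARTPT had the lowest slope of the 10 at -0.25, and NPY had r = -0.18 (permutation p = 0.365).

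The relations to TH were also taken within groups. In the 11 controls, CCK correlated with TH at r = 0.74 (rho = 0.90), CARTPT at r = 0.83 (rho = 0.78), VIP at r = 0.74 and NTS at r = -0.55. In the 17 drinkers CCK had r = 0.29, CARTPT r = -0.27, VIP r = 0.49, NTS r = -0.12 and NPY r = -0.51. Without the 2 drinkers farthest in TH, these were 0.13 for CCK, -0.21 for CARTPT, 0.28 for VIP, -0.31 for NTS and -0.15 for NPY. The slope of CARTPT on TH differed between drinkers and controls by -0.74 (SE 0.25; p = 0.00606, adjusted p 0.695, edgeR), which made it the only one of the 10 among 662 transcripts under an unadjusted p of 0.05 (4.81%), with 0 called by edgeR (0%) and 32 by DESeq2. It was -0.42 (adjusted p 1.00, edgeR) without cohort 2 drinker 3, the animal with 34.9 CPM of CARTPT and 10.3 CPM of TH, a value added after seeing the data. The slopes of CCK, VIP, NTS and NPY differed between drinkers and controls by -0.20 (SE 0.21), -0.33 (SE 0.43), 0.065 (SE 0.17) and -0.19 (SE 0.17), so that a difference was not shown for them.

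By cohort, CCK correlated with TH at r = 0.69 in the 16 animals of cohort 1 and at r = -0.27 in the 12 of cohort 2, and VIP at 0.69 and 0.43. ADCYAP1 had r = 0.34 in cohort 1 and r = -0.71 in cohort 2. Without the 2 animals of cohort 2 farthest in TH, these were -0.46 for ADCYAP1, -0.19 for CCK and 0.21 for VIP. The difference of the slope on TH between cohorts was -0.50 for ADCYAP1 (SE 0.17; adjusted p 0.552, edgeR), -0.54 for CCK (SE 0.20; adjusted p 0.677, edgeR) and -0.83 for VIP (SE 0.37; adjusted p 0.900, edgeR). These were 3 of 673 transcripts under an unadjusted p of 0.05 by edgeR (4.89%), and 0 of 13768 were called by edgeR (0%) and 28 by DESeq2, none of the 10 among them. By DESeq2 the difference for VIP was -0.58 and not under that threshold (p = 0.356). TH in cohort 1 reached 826 CPM and in cohort 2 it reached 529.6 CPM.

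**Figure D3:**
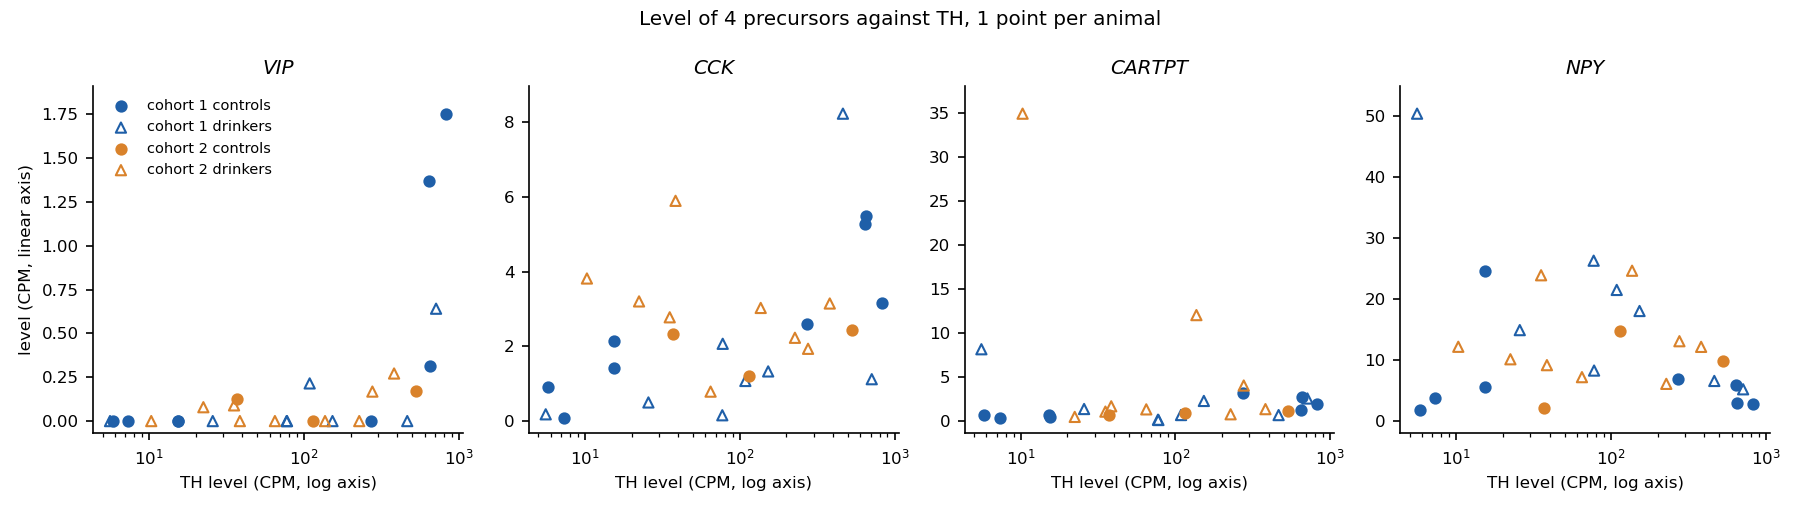
Level of 4 precursors in CPM on linear axes against TH in CPM on a log axis, 1 point per animal, with controls and drinkers and both cohorts marked. The 4 highest VIP values were in the 4 animals highest in TH, from 644 CPM up, and the CARTPT value of 34.9 CPM stood in an animal with 10.3 CPM of TH.

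**Figure D4:**
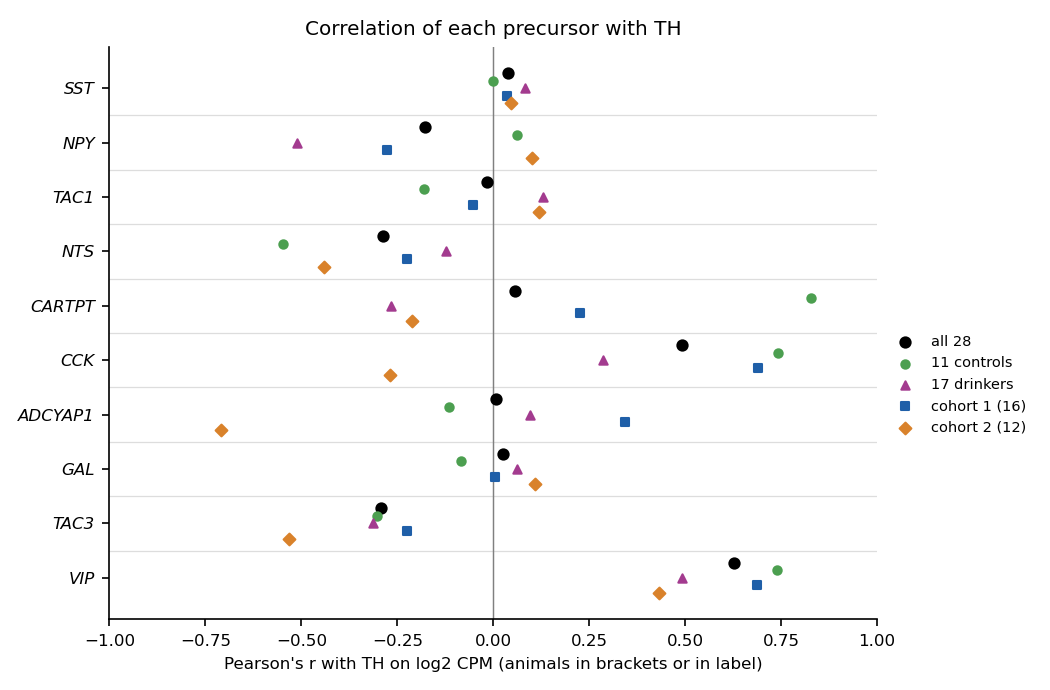
Pearson's r of each precursor with TH on log2 CPM in all 28 animals and within controls, drinkers, cohort 1 and cohort 2. VIP was above 0 in all 5 sets, while CCK was at 0.69 in cohort 1 and -0.27 in cohort 2 and CARTPT at 0.83 in controls and -0.27 in drinkers.

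Among themselves the precursors formed 45 pairs, with a median r of 0.10 and 30 pairs above 0. CCK and ADCYAP1 were the pair with the lowest p, with r = 0.61 (permutation p = 0.00058, adjusted over the 45 pairs 0.0261) and rho = 0.51 (adjusted 0.176). The pair correlated at r = 0.77 in drinkers, 0.29 in controls, 0.67 in cohort 1 and 0.33 in cohort 2. By rank no pair passed the adjustment, and by r this pair did not pass without cohort 1 control 3, cohort 1 drinker 4 or cohort 1 drinker 7 (adjusted permutation p 0.0738, 0.0792 and 0.220). At an unadjusted permutation p of 0.05, 10 pairs were reached by r and 3 by rho. The 3 reached by both were CCK with ADCYAP1, NTS with CARTPT (r = -0.41, rho = -0.50) and TAC3 with ADCYAP1 (r = 0.45, rho = 0.40). Those reached by r alone included NPY with GAL (r = -0.45), GAL with ADCYAP1 (r = 0.45), SST with VIP (r = -0.45) and NTS with SST (r = 0.42). NTS and SST stood at r = 0.71 in cohort 1 and r = -0.35 in cohort 2, with no test of that difference.

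**Figure D5:**
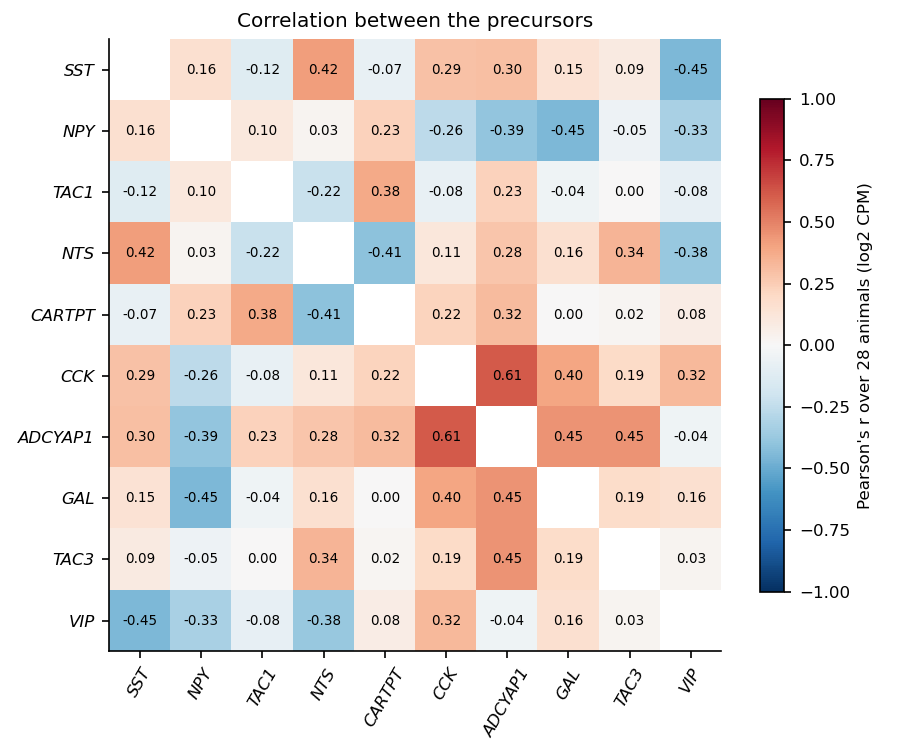
Pearson's r between each pair of the 10 precursors on log2 CPM over 28 animals, shown as a colour from negative to positive. CCK with ADCYAP1 at 0.61 was the only pair past the adjusted threshold.

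The transcripts whose levels ranked most like each precursor over the 28 animals, among 11355 that reached 5 counts in 14 or more animals, are a description without a test. For VIP the nearest was LMX1B (rho = 0.70), a homeobox gene of midbrain dopamine neurons, and TH itself was in place 18. For TH the nearest were DDC (0.97), SLC6A3 (0.95) and SLC18A2 (0.94), all genes of dopamine synthesis or transport. For CCK they were CELF3 (0.85), RRP1B (0.81) and SCN3B (0.80), with TH in place 617. ADCYAP1 was nearest to CAMK2A (0.82), a kinase of excitatory neurons, CHST8 (0.82) and SORCS1 (0.81). The nearest for the others were PLIN3 for CARTPT, INTS10 for NPY, LTV1 for SST, KCNG1 for TAC1, DIS3 for NTS, COQ8A for TAC3 and CEL for GAL, at rho = 0.67 to 0.75.

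Genes that make, store and sense these peptides were listed as the pathway. Of 19 genes of peptide processing and granules, 18 were tested, and none was called between drinkers and controls. CPE, the carboxypeptidase that trims precursors, was the highest at a median of 1472 CPM and differed by 0.24 (SE 0.08; adjusted p 0.553, edgeR), and PCSK1N, an inhibitor of the convertase PCSK1, by -0.32 (SE 0.15; adjusted p 1.00, edgeR). Granule proteins SCG2 and the vesicle sensor SYT4 followed at medians of 439 and 167 CPM.

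Of 23 receptors, 19 were tested and none was called or under an unadjusted p of 0.05 between drinkers and controls. The highest were the neurotensin receptors SORT1 and NTSR2, at medians of 254 and 107 CPM, and the PACAP receptor ADCYAP1R1 at 97.8 CPM, whereas the VIP receptors VIPR1 and VIPR2 were at 0 counts in 27 and 28 animals. The peptide receptors NTSR1 and CCKAR, both known from dopamine neurons, followed TH, NTSR1 with a slope of 0.57 (SE 0.06; adjusted p 6.23e-08, edgeR) and CCKAR with a slope of 0.34 (SE 0.05; adjusted p 7.61e-05, edgeR). The granule protein CHGB followed as well, at 0.21 (SE 0.04; adjusted p 0.00994, edgeR). Their ligands NTS and CCK were not called in that fit, with slopes of -0.17 and 0.22, and the difference between receptor and ligand was not tested.

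Of 28 other non-opioid precursors, 19 were tested and none was called. HCRT (orexin) at -2.60, TRH at 1.52 and CALCB at 1.21 were under an unadjusted p of 0.05 between drinkers and controls, with edgeR p-values of 0.0052, 0.023 and 0.0349. HCRT was at 0 counts in 17 animals and reached 0.498 CPM, and TRH and CALCB had their highest values in the animal with the highest CARTPT. Among markers of other cells, none of any list was called between drinkers and controls, and of the 3 serotonin-neuron genes SLC6A4 and FEV were at 0 counts in 23 and 27 animals and TPH2 in 4, with a highest level of 6.89 CPM. Summed GABA-neuron markers ran from 111 to 347 CPM in controls and from 132 to 353 CPM in drinkers, and glutamate-neuron markers from 35.9 to 222 and from 65.1 to 372 CPM. Over the 28 animals, correlations with the 2 glutamate-neuron markers went apart for some precursors. SLC17A6 and SLC17A7 were at r = 0.56 and -0.15 for NTS, 0.49 and 0.08 for SST, -0.51 and 0.24 for VIP and -0.04 and 0.52 for CCK. They were closer for TAC3 at 0.19 and 0.19, GAL at -0.09 and 0.06 and TAC1 at -0.25 and -0.07. With the GABA-neuron markers GAD1 and SLC32A1, NPY had r = 0.46 and 0.45 and ADCYAP1 -0.46 and -0.08. CCK had -0.44 and -0.24, VIP -0.39 and -0.34 and TAC1 -0.09 and 0.45, and the others lay between -0.24 and 0.23. The GABA-neuron marker GAD2 was not compared in this way. The part of these cells in the precursors' values was not tested.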

How the data were processed

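RNA of 28 VTA punches had been sequenced with the Nugen Universal Plus mRNA kit. Per the submitters' processing notes and the methods, the authors trimmed reads with Trim Galore 0.6.7, quantified them with Salmon 1.9.0 against Mmul_10 and ran DESeq2 1.36.0. The deposited values are Salmon's estimated counts per transcript without normalization, and each gene symbol has 1 entry with 1 transcript identifier. Whether an entry also holds the reads of a gene's other transcripts is not given in the sources used here. The 1 entry without a symbol (1.16e-05% of counts) was left out.

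Counts were rounded to whole numbers and filtered at 5 counts in 3 animals, leaving 13769 of 16885 transcripts. edgeR 4.0.16 (TMM, quasi-likelihood test, Benjamini-Hochberg over all transcripts, threshold 0.05) in R 4.3.3 was the main test and DESeq2 1.42.0 an alternative. Standard errors were derived from the F statistic, and 95% intervals from them with the t distribution at the fit's degrees of freedom. Correlations used log2 CPM with a prior count of 2 and two-sided permutation tests (100000 resamples, numpy 2.4.6, scipy 1.17.1). Groups came from the labels and cohorts from the study's source data. Libraries held a median of 22020291 counts, and intervals and floors from counts cover counting error only. The fits were tested on simulated counts. Named genes were all 10 precursors, TH, the 3 transcripts ranked nearest to each, and, from lists of peptide processing genes, receptors, other precursors and cell-type markers, those past a test or with the highest level. The precursors and the lists were chosen with earlier results of these data known. Alternatives were another normalization, filters, covariates, SLC6A3 in place of TH and leaving out animals. Gene positions and the length of each gene's longest messenger RNA came from RefSeq.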

Additional observations from a re-analysis of the deposited data

Results flagged for a closer look

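TAC1 was at 4.02 CPM in cohort 1 drinker 1, a heavy drinker, and the gap between this animal and the next lowest of the 8 drinkers of cohort 1 was large against their whole range by Dixon's test on log2 CPM with a prior count of 2. GAL was at 0 CPM in cohort 1 drinker 7, which lay apart from the other 8 very heavy drinkers by the same test. Of 50 groups of 4 to 10 animals examined, 2 were marked in this way, and chance marks about 1 in 20. On the CPM scale, without logs, the same test marked 12 of the 50, and neither of these animals.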

How the results depend on the processing

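Between drinkers and controls, between categories and between cohorts, no precursor was called under any alternative that gave an adjusted p. DESeq2 gave none for 8 of the 10 within cohort 1, 1 within cohort 2 and 9 in the difference between cohorts. The count of precursors called on TH (1, VIP) became 0 with SLC6A3 in place of TH, arm and cohort as covariates, DESeq2, at least 10 counts in every animal (which drops VIP), without the 2 animals farthest in TH, in controls only and in drinkers only; leaving out 1 animal gave 0 to 1, with 0 without cohort 1 control 5. The count of correlations with TH past an adjusted p of 0.05 over the 10 by Pearson's r (2, VIP and CCK) became 1 with variance stabilized counts, SLC6A3 or without those 2 animals, and 1 to 2 leaving out 1 animal. CCK lost the threshold in 10 of the 28 removals of 1 animal. The count of pairs (1) became 0 with variance stabilized counts and 0 to 2 leaving out 1 animal. No cause was tested beyond the samples and genes each alternative removes.

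Some directions turned, none of a called value. For drinkers against controls, CCK was 0.21 with TH as covariate and -0.24 to 0.18 leaving out 1 animal, TAC3 -0.088 and ADCYAP1 -0.35 with cohort as covariate, and ADCYAP1 -0.12 to 0.37 leaving out 1 animal, lowest without cohort 2 drinker 3. Slopes on TH turned to 0.041 for TAC1 in drinkers only, to 0.063 for SST and 0.31 for CARTPT in controls only, to -0.012 for GAL without the 2 farthest animals and -0.0080 in controls only, and to 0.00044 for ADCYAP1 with arm and cohort as covariates. Leaving out 1 animal, they ranged from -0.044 to 0.0041 for TAC1, -0.077 to 0.034 for SST, -0.017 to 0.034 for GAL, -0.29 to 0.029 for CARTPT and -0.13 to 0.021 for ADCYAP1. The difference between cohorts in the slope of CARTPT on TH ranged from -0.82 to 0.49, highest without cohort 2 drinker 3. Of 1151 recomputed values for single precursors, 1094 kept direction and side of the threshold, 24 lost the threshold and 33 turned. Some alternatives were chosen after seeing the data. They were the slopes on TH by group and leaving out animals for slopes on TH, correlations with TH and pairs. Leaving out very heavy drinkers in their comparison with controls, and drinkers in the comparison within cohort 2, was also chosen then. So were the differences of the slope on TH between cohorts and between drinkers and controls. TAC3, VIP and GAL had the lowest median counts of the precursors, and the effect of depth was not tested. No paired analysis was possible because the labels do not say which control was yoked to which drinker.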
